A study of Mus musculus with 8 samples.

Results

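The genes described here are 10 early-response genes of the mouse, Ier2, Ier3, Ier5, Btg1, Btg2, Gadd45a, Gadd45b, Gadd45g, Csrnp1 and Phlda1, among 24011 genes measured on 8 arrays. Each was taken as the probe set whose number is the gene's Entrez number, and all 10 were found. The RNA came from primary macrophages grown from bone marrow of WT mice aged 8 to 10 weeks, with L cell-conditioned medium supplying M-CSF, on which macrophage growth and survival depend, and was hybridised to Affymetrix whole-transcript arrays. The arrays comprised 4 Hepcidin samples, given the peptide hormone hepcidin at 10 µg/ml for 1 h before lysis, and 4 PBS samples, given PBS in its place. Both groups were kept in the same medium, so M-CSF was present in the controls too. The labels name no strain beyond WT. The titles carry numbers from 1 to 4 in each group without saying whether a number is an animal or a culture, so p-values reflect only how these samples varied, possibly for technical reasons. Values are log2 probe set values, on which a difference of 1 is a doubling, and changes are hepcidin minus PBS.

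Early-response genes are switched on within minutes to an hour of a stimulus from transcription factors already present in the cell, and many of their mRNAs decay quickly. The IER genes encode small nuclear or stress-related regulators. BTG proteins slow proliferation and bind the CCR4-NOT deadenylase, which shortens the poly(A) tails of mRNAs. GADD45 proteins are small acidic stress proteins that bind the kinase MAP3K4 upstream of p38 and JNK, as well as the replication clamp PCNA and the cell cycle kinase CDK1. In macrophages, inflammatory signals acting through NF-kB and MAP kinases are known inducers of several of these genes, and p53 is a known inducer of Btg2 and Gadd45a.

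The 7 measured of 9 macrophage markers had high levels, with an array mean of 10.93 to 11.40 with hepcidin and 10.76 to 11.41 with PBS, led by Cd68. Lymphoid and endothelial markers, 20 of 22 measured, served as a measure of background. Their median was 3.99 and their 90th percentile 6.84 over genes. Their upper end may hold more than background, as Vwf and Flt1 differed alike by number in both groups. Vwf was highest on number 1 (7.94 with hepcidin, 7.55 with PBS). Flt1 stood higher on number 2 (7.27 with hepcidin, 7.18 with PBS) than on number 3 (6.51 in both groups). The 8 dendritic cell markers had array means of 4.66 to 4.90 with hepcidin and 4.77 to 4.85 with PBS. No marker passed after adjustment. Among the markers with the smallest p, the T cell gene Cd8a stood at 3.40 with hepcidin and 3.73 with PBS, below the background median, and was lower in 4 of 4 pairs (-0.33, unadjusted p 0.0016 in limma). The dendritic cell and progenitor gene Flt3 changed by -0.26 (unadjusted p 0.0494 in limma) and was lower in 3 of 4 pairs. The others of smallest p in their lists changed by 0.18 (Klrb1c), -0.11 (Zbtb46), -0.12 (Kit), -0.20 (S100a9), 0.09 (Adgre1) and 0.07 (Cd14), and the most abundant by -0.05 (Kdr), 0.18 (Itgax), 0.06 (Ngp) and 0.02 (Cd68). Both arrays numbered 1 stood apart from the other 6 on the first principal component (36.2% of the variance), at -25.8 with hepcidin and -34.5 with PBS, against 6.72 to 12.1 on the other hepcidin arrays and 8.19 to 13.2 on the other PBS arrays. The number of arrays limits the precision. In such bulk samples a smaller number of responding cells and a smaller amount of mRNA per cell cannot be told apart.

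With hepcidin, Ier3 was 1.53-fold, Btg2 1.28-fold and Gadd45b 1.28-fold higher than with PBS, each in 4 of 4 pairs, a pair being the hepcidin and the PBS array of one number. Btg1 and Phlda1 were also higher in 4 of 4 pairs, by a mean of 0.21 and 0.06 on the log2 scale. Gadd45g was lower in 4 of 4 pairs, by a mean of -0.15. The other 4 members, Ier2, Ier5, Gadd45a and Csrnp1, had pairs in both directions. After adjustment over all genes in limma, 0 of 10 members had a p under 0.05, as did 0% of the 24011 genes. At an unadjusted p under 0.05, 2 members were higher (Ier3 and Gadd45b), against 1.33% of all genes, and 0 were lower, against 1.53%. With the replicate number as a block, 0 of 10 passed after adjustment (0.00416% of all genes), and 4 were higher at an unadjusted p under 0.05 (Ier3, Gadd45b, Btg2 and Btg1), against 2.34% of all genes, and 0 were lower, against 2.57%. Without both arrays numbered 1, 3 members (Ier3, Gadd45b and Btg2) were higher at that level, both without the block, where 1.76% of all genes were, and with it, where 2.86% were. The groups did not overlap for 2 members, Ier3 and Gadd45b, both higher, against 0.845% of all genes, and 0 members lay wholly lower, against 1.03%. Being higher in 4 of 4 pairs held for 5 members and for 5.69% of all genes, and being lower in 4 of 4 held for 1 member and for 5.92% of all genes. The median log2 change of the members was 0.16, against 0.00 over all genes, with 9 of 10 above 0, against 50.4% of all genes.

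**Figure D1:**
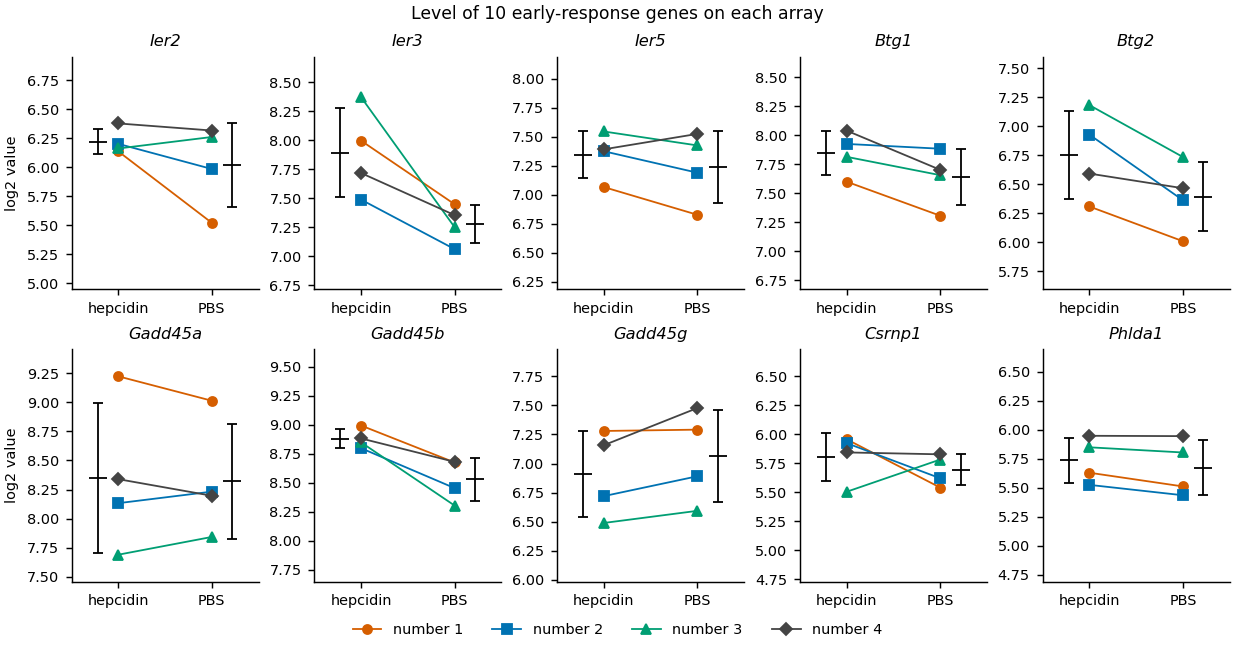
Log2 value (y axis, each panel spanning 2 log2 units) of the 10 genes on each of the 4 hepcidin and 4 PBS arrays, with lines joining arrays of the same number and black bars for the group mean ± SD (n = 4). All 4 lines slope down toward PBS for Ier3, Btg1, Btg2, Gadd45b and Phlda1 and up for Gadd45g, and Gadd45a is highest on both arrays numbered 1.

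Ier3 encodes IEX-1, a stress-inducible protein that modulates cell death and ERK signalling and is a known NF-kB target. Its log2 value was 8.00, 7.49, 8.37 and 7.72 on hepcidin arrays 1 to 4, against 7.45, 7.06, 7.25 and 7.36 on PBS arrays 1 to 4. The lowest hepcidin array, number 2, lay above the highest PBS array, number 1, so the groups did not overlap. The group means were 7.89 ± 0.38 with hepcidin and 7.28 ± 0.17 with PBS (SD, n = 4 each). The log2 change was 0.61 with an SE of 0.17 and a 95% confidence interval from 0.23 to 1.00, and in limma p was 0.00547 before and 1.00 after adjustment. With the block, limma's SE was 0.13, and p was 0.0015 before and 0.688 after adjustment. By pair the change was 0.55, 0.43, 1.12 and 0.36, so the fold ranged from 1.29 in pair 4 to 2.17 in pair 3. Without both arrays numbered 1 the change was 0.64.

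Ier2 and Ier5 are related to each other and not to Ier3. Ier2 encodes a nuclear protein induced by growth factors, and Ier5 a nuclear protein that responds to radiation and heat stress. Ier2 stood at 6.14, 6.20, 6.16 and 6.38 on hepcidin arrays 1 to 4, against 5.52, 5.99, 6.26 and 6.32 on PBS arrays 1 to 4. Hepcidin arrays 1 to 3 lay within the PBS range and hepcidin array 4 just above it. Number 1 was lowest in both groups, only slightly on the hepcidin side, and the PBS array numbered 1 stood well below the other PBS arrays. The change of 0.20 (SE 0.16) was 0.03 without that array and 0.06 without both arrays numbered 1. Ier5 averaged 7.35 ± 0.20 with hepcidin and 7.24 ± 0.31 with PBS (SD, n = 4 each). Its change was 0.24, 0.18, 0.12 and -0.13 in pairs 1 to 4, with a mean of 0.10 and a 95% confidence interval from -0.25 to 0.45. Ier5 was lowest on number 1 in both groups, at 7.07 with hepcidin and 6.83 with PBS.

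Btg2, also known as TIS21 or PC3, is an antiproliferative gene of the BTG family. Its log2 value was 6.31, 6.93, 7.18 and 6.59 on hepcidin arrays 1 to 4, against 6.01, 6.36, 6.73 and 6.47 on PBS arrays 1 to 4. The groups overlapped, and the arrays differed by number. Number 1 was lowest and number 3 highest in both groups, and each hepcidin array lay above its same-numbered PBS array. The means were 6.75 ± 0.38 with hepcidin and 6.39 ± 0.30 with PBS (SD, n = 4 each). The change was 0.36 with an SE of 0.20 and an unadjusted p of 0.102 in limma without the block. With the block, limma gave an SE of 0.09, with p at 0.00427 before and 0.784 after adjustment. The 4 pairs gave 0.30, 0.57, 0.45 and 0.13.

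Btg1, its close relative, stood at 7.60, 7.92, 7.81 and 8.04 on hepcidin arrays 1 to 4, against 7.31, 7.88, 7.66 and 7.70 on PBS arrays 1 to 4. Number 1 was lowest in both groups, and the groups overlapped. The change was 0.21, with 95% confidence bounds from -0.09 to 0.51 in limma and from 0.02 to 0.39 with the block, where the unadjusted p was 0.0319 and the adjusted p 0.970. Pair differences ran from 0.04 in pair 2 to 0.34 in pair 4. Without both arrays numbered 1 the change was 0.18, with an unadjusted p of 0.0893 in limma with the block.

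Gadd45b, first known as MyD118, encodes the GADD45 protein that NF-kB is known to induce and that restrains JNK signalling. Its log2 value was 8.99, 8.80, 8.85 and 8.88 on hepcidin arrays 1 to 4, against 8.68, 8.45, 8.30 and 8.68 on PBS arrays 1 to 4. All 4 hepcidin arrays lay above all 4 PBS arrays, with the hepcidin arrays close together. The means were 8.88 ± 0.08 with hepcidin and 8.53 ± 0.18 with PBS (SD, n = 4 each). The change was 0.35 with an SE of 0.10 and a 95% confidence interval from 0.12 to 0.58, and in limma p was 0.00629 before and 1.00 after adjustment. With the block, limma's unadjusted p was 0.00265 and the adjusted p 0.784. The pairs gave 0.32, 0.34, 0.54 and 0.20, with pair 3 the largest and pair 4 the smallest, as for Ier3. Without both arrays numbered 1 the change was 0.36.

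Gadd45a, the member that p53 is known to induce, varied more by number than by treatment. It stood at 9.23, 8.13, 7.69 and 8.34 on hepcidin arrays 1 to 4, against 9.02, 8.23, 7.84 and 8.20 on PBS arrays 1 to 4. Number 1 was the highest and number 3 the lowest in both groups. Averaged over both treatments, the 4 numbers had an SD of 0.57 on the log2 scale, the widest among the 10 members, against 0.12 for Gadd45b. The change with hepcidin was 0.03, and the 95% confidence interval ran from -0.69 to 0.74 in limma and from -0.18 to 0.23 with the block. The 12 neutrophil and precursor markers also differed by number in their mean level. Their mean level was 4.61 on hepcidin array 1 and 5.54 to 6.05 on the other hepcidin arrays, against 4.78 on PBS array 1 and 5.59 to 6.07 on the other PBS arrays. Not every marker followed this mean, and Kit was lowest on number 4 in both groups, at 5.89 with hepcidin and 5.86 with PBS. The macrophage marker Fcgr1 was also lowest on number 1, at 9.19 with hepcidin and 8.84 with PBS. The part of neutrophils and precursors in the Gadd45a level was not tested.

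Gadd45g, also called CR6 and known as a cytokine-responsive member, was the 1 member with a mean change below 0. It stood at 7.28, 6.72, 6.49 and 7.16 on hepcidin arrays 1 to 4, against 7.29, 6.89, 6.59 and 7.48 on PBS arrays 1 to 4. Each hepcidin array was below its same-numbered PBS array, by -0.01, -0.17, -0.10 and -0.32 in pairs 1 to 4, and the groups overlapped. The mean change of -0.15 had a 95% confidence interval from -0.65 to 0.34 in limma and from -0.33 to 0.03 with the block, with an unadjusted p of 0.508 and 0.0907. It ran from -0.31 without PBS array 3 to -0.01 without hepcidin array 3 or without PBS array 4.

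Csrnp1 encodes a cysteine- and serine-rich nuclear protein that acts as a transcription factor, and Phlda1, also known as TDAG51, a protein with a pleckstrin homology-like domain linked to cell death. Csrnp1 averaged 5.81 ± 0.21 on hepcidin arrays and 5.69 ± 0.13 on PBS arrays (SD, n = 4 each). Its pairs gave 0.42, 0.30, -0.28 and 0.02, so pair 3, the largest for Ier3 and Gadd45b, was the lowest for Csrnp1. Phlda1 averaged 5.74 ± 0.19 on hepcidin arrays and 5.67 ± 0.24 on PBS arrays (SD, n = 4 each). It was higher in 4 of 4 pairs by 0.12, 0.09, 0.04 and 0.003, and the unadjusted p in limma was 0.651, or 0.383 with the block. The PBS means of Csrnp1, Phlda1, Ier2 and Btg2 lay between the median and the 90th percentile of the background markers. Ratios on such arrays may be compressed at those levels. The other 6 members had PBS means above that percentile.

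**Figure D2:**
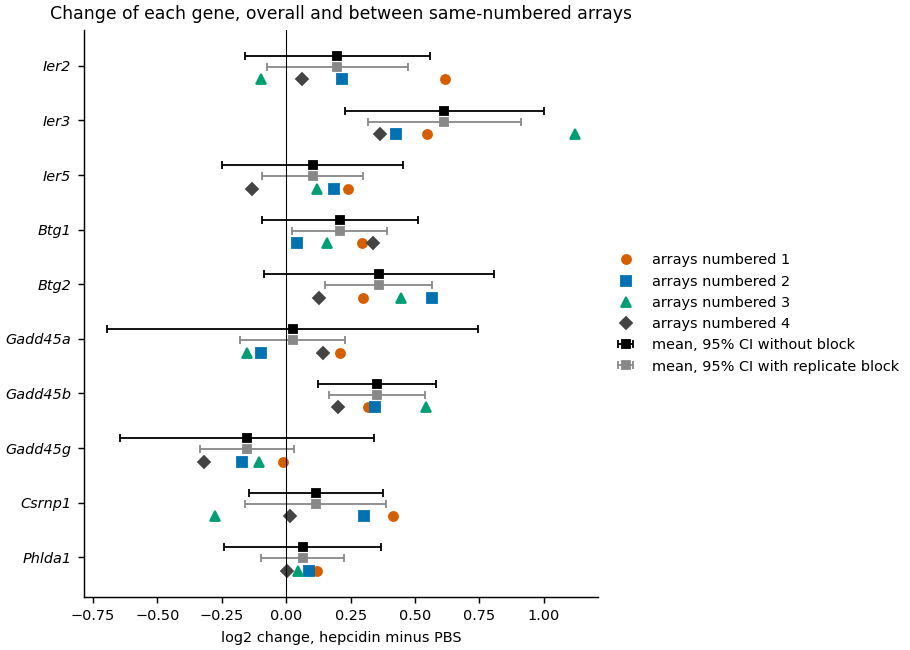
Log2 change, hepcidin minus PBS (x axis), of each gene: black and grey squares give the mean with its 95% confidence interval in limma without and with the replicate block, and coloured symbols the difference between arrays of the same number. Intervals without the block lie above 0 for Ier3 and Gadd45b, and with it also for Btg1 and Btg2.

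Differences in response were compared directly within the BTG and GADD45 families and within the IER genes, a group by name. The 7 pairs of members include Ier3 against Ier2 and Ier5, to which it is not related. For each pair of members, the difference of the log2 values was taken on each array. It was set between hepcidin and PBS by a two-sided exact permutation test over the 8 arrays, whose smallest possible p is 0.0286. This test does not use the pairing of arrays by number. The change of Gadd45b exceeded that of Gadd45g by 0.50, in 4 of 4 pairs (0.33, 0.52, 0.65 and 0.52), with an exact p of 0.0286 and 0.2 after Benjamini-Hochberg adjustment over the 7 comparisons. Gadd45b exceeded Gadd45a by 0.33 (exact p 0.343) and Ier3 exceeded Ier5 by 0.51 (exact p 0.171), each in 4 of 4 pairs. Ier3 exceeded Ier2 by 0.42 (exact p 0.2) and Btg2 exceeded Btg1 by 0.15 (exact p 0.514), each in 3 of 4 pairs. Ier2 exceeded Ier5 by 0.10 (exact p 0.4) and Gadd45a exceeded Gadd45g by 0.18 (exact p 0.486). No comparison passed after adjustment, with adjusted p-values from 0.2 to 0.514. A single comparison at the smallest exact p reaches only 0.2 after adjustment over 7, so this test could hardly pass here. Whether members of a family or of the IER group differ in response is not settled by this test. Flipping signs over the 4 pairs, which uses the pairing, cannot give an exact p below 1 in 8. It gave that value for Gadd45b against both other GADD45 genes and for Ier3 against Ier5. After adjustment over the 7 comparisons, the sign-flip p-values ran from 0.292 to 0.5.

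**Figure D3:**
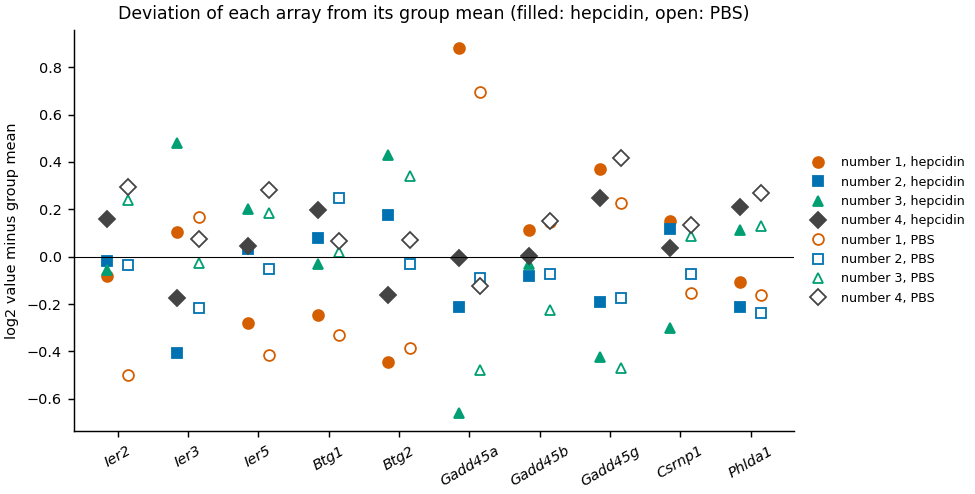
Deviation of each array from its group mean (y axis, log2 value) for the 10 genes, with colour and shape for the array number, filled symbols for hepcidin and open symbols for PBS. Number 1 lies at the top for Gadd45a and at the bottom for Ier2, Ier5, Btg1 and Btg2 in both groups, for Ier2 only slightly on the hepcidin side.

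The promoters of Ier3, Btg2 and Gadd45b are shown because these are the 3 members with the largest changes. RefSeq promoter windows (GRCm38.p6, 250 bases before to 50 after the gene's start) were matched by gene number for 8 of the 10 members, all but Ier2 and Phlda1. The 250 bases before the start are printed for each, 5′ to 3′ on the strand of the gene. Capitals mark matches, on either strand, to the kappaB consensus (the NF-kB motif), the AP-1 site TGANTCA, the cAMP response element TGACGTCA or the CArG box of serum response factor.
Ier3, chr17:35821463-35821712, plus strand: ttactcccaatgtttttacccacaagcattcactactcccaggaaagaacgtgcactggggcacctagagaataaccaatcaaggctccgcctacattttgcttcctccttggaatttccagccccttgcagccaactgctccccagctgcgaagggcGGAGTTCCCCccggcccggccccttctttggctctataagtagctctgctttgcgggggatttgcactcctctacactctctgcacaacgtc
Btg2, chr1:134079156-134079405, minus strand: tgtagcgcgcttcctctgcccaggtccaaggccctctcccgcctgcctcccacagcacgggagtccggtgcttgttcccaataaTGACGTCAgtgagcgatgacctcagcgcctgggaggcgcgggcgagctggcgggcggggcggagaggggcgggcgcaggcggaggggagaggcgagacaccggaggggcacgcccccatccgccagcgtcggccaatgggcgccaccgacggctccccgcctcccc
Gadd45b, chr10:80929841-80930090, plus strand: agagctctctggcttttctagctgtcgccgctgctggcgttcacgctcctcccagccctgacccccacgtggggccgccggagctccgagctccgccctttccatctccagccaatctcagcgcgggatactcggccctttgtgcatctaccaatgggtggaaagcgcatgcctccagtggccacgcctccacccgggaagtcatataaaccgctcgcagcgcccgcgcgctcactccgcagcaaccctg
The Ier3 window held 1 kappaB match, at -92 to -83 from the start on the strand opposite to the gene. The Btg2 window held 1 cAMP response element, at -166 to -159, which reads the same on both strands. The Gadd45b window held no match to any of these motifs, which says only that these letters are not in this window. Of 32851 promoter windows of the same length, 4.51% held a kappaB match, 1.79% the cAMP response element, 7.81% an AP-1 site and 1.63% a CArG box. The windows of Ier5, Btg1, Gadd45a and Gadd45g held none, and of the 4 Csrnp1 windows 1 held 2 AP-1 sites. A match describes the letters and does not show that a factor binds there.

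The members were then set beside related lists, which were chosen, like the members, with earlier results of these data known. Among NF-kB target and feedback genes, 14 of 14 measured were higher with hepcidin, each in 4 of 4 pairs, against 5.69% of all genes. Their median change was 0.51, and 13 of 14 were higher at an unadjusted p under 0.05 in limma, against 1.33% of all genes. Tnf changed by 1.28 and Nfkbiz by 1.24, against 0.61 for Ier3 and 0.35 for Gadd45b. Neither these nor any other list had a member past the adjusted threshold, with or without the block as a fixed term. Under other settings NF-kB genes did pass in limma, 3 with a filter on a mean of at least 6, 4 with the number as a random block, 5 with the fixed block and the filter, 2 without hepcidin array 2, and 1 with the fixed block and without both arrays numbered 2. By pair, the median change of the NF-kB list was 0.61, 0.39, 0.73 and 0.36, and that of the 10 members 0.30, 0.20, 0.08 and 0.09. Of 22 other early-response genes, 16 were higher, against 50.4% of all genes, and 7 were higher in 4 of 4 pairs, against 5.69%. Their median change was 0.09. At an unadjusted p under 0.05 in limma, 4 were higher, against 1.33% of all genes. Junb, an AP-1 subunit gene, had the smallest p, at a change of 0.44 (unadjusted p 0.0132 in limma). Next came Maff, a small MAF factor gene, at 0.35 (0.0145). The largest change in this list was 0.59, for Zfp36 (unadjusted p 0.0323 in limma). Maff had a PBS mean of 4.96, between the median and the 90th percentile of the background markers.

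The lists of relatives, p53 targets, deadenylation genes and GADD45 partners had medians near 0. Of 11 relatives and interacting proteins of the members, the latter being Ier3ip1 and Gadd45gip1, 7 were higher and 4 lower. Their median was 0.05, and 0 had an unadjusted p under 0.05 in limma without the block. Csrnp3, a relative of Csrnp1, changed by 0.13 at a PBS mean of 4.12, near the background median of 3.99. Tob1, an antiproliferative gene of the BTG/TOB family, changed by -0.19, was lower in 4 of 4 pairs and had an unadjusted p in limma of 0.298, or 0.0284 with the block. The 20 measured p53 targets divided into 10 higher and 10 lower, with a median of -0.00, and the smallest unadjusted p values were those of the death receptor gene Tnfrsf10b (0.23, p 0.161, or 0.036 with the block) and the BH3-only gene Pmaip1 (0.15, p 0.251) in limma. Of 14 CCR4-NOT and related deadenylation genes 4 were higher and 10 lower, with a median of -0.02, and Cnot4 at -0.12 and Pabpc1 at -0.06 had the smallest p. Of 13 measured p38 and JNK kinases and cell cycle partners of GADD45 proteins 7 were higher and 6 lower, with a median of 0.00. The p38 kinase kinase gene Map2k3 changed by 0.18 (unadjusted p 0.127 in limma) and the JNK kinase gene Map2k4 by 0.07.

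**Figure D4:**
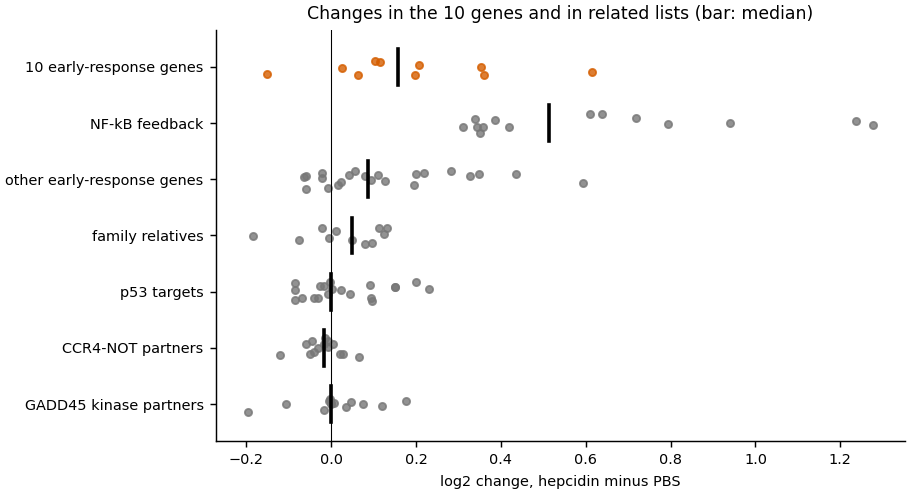
Log2 change, hepcidin minus PBS (x axis), of each gene (points) in the 10 early-response genes and 6 related lists, with a bar at the median. The median is 0.16 for the 10 genes, 0.51 for NF-kB feedback genes and 0.09 for other early-response genes, and it lies between -0.02 and 0.05 in the other 4 lists.

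The genes whose profile over the 8 arrays was most like that of each of 3 members were taken from 8923 named genes with a mean value of at least 6. These correlations describe 8 arrays that share treatment and number, and genes picked as the highest of so many have a high value by selection. For Ier3 they were Bcl3 (Pearson r 0.946), Tnfsf9 (0.902), Nfkbie (0.900), Zfp418 (0.893) and Nfkb2 (0.891). For Gadd45b they were Tnfaip3 (0.955), Irak2 (0.955), Stx8 (0.945), Tnip1 (0.939) and Nfkbia (0.935). For Btg2 they were Arl16 (0.963), Zfyve27 (0.942), Arpc5 (0.941), Ctbp2 (0.939) and Prdx2 (0.939). With the mean of each number subtracted, which leaves 4 independent differences, the names were others. Their log2 changes ran from 0.02 (Senp2) to 0.59 (Zfp36), so a high r does not give the size of a change. Ralgds, Mtf1, Tacc1, Ccnl1 and Dusp5 were then nearest to Ier3 (0.995 to 0.998), Btf3l4, Pdgfb, Rfx5, Zfp36 and Slc25a25 to Gadd45b (0.992 to 0.998), and Dym, Galnt3, Katnal1, Senp2 and Mapkapk2 to Btg2 (0.992 to 0.996).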

How the data were processed

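The deposited table holds log2 values for 8 arrays. Per the submitters' processing notes, the authors used RMA and affy (version 1.36.1). RMA corrects background, equalises array distributions and summarises probes, which compresses ratios of dim genes. The probe set definition is not given in the sources used here. Of 24973 probe sets, 24015 had 1 gene symbol in the platform annotation and 0 had several, 23922 matched RefSeq by gene number, and 958 had no listed gene. The brightest probe set per symbol left 24011 genes, with no filter.

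Hepcidin was compared with PBS in limma 3.58.1 (R 4.3.3), adjusting p-values over all genes by Benjamini-Hochberg at 0.05. Across genes, deviations of arrays from their group mean had r of 0.344 to 0.548 between equal numbers and -0.356 to 0.124 between different ones, so the title numbers pair the arrays. The fits were tested on simulated data. The members, 10 lists of 150 entries (141 measured) and the alternatives (normalization, filter, probe sets, variance model, block, arrays left out) were chosen with earlier results of these data known. Named were all members and, per other list, genes past the threshold or otherwise the 2 with the smallest p, with the most abundant marker. Also named were Fcgr1, Flt1 and Vwf for their levels by array number, and Zfp36 for the largest change in its list. The 5 genes most like Ier3, Btg2 and Gadd45b leave out predicted genes. Permutation tests used scipy 1.17.1, figures matplotlib 3.10.9.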

Additional observations from a re-analysis of the deposited data

How the results depend on the processing

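No member passed an adjusted p of 0.05 in limma under any of the 22 alternatives, and the lowest adjusted p was 0.274, for Ier3 with the replicate block and a filter on a mean of at least 6. That filter left out Csrnp1 and Phlda1. The number of genes called over all genes, 0 in the comparison reported, was 3 with the filter at 6, 1 with the replicate block as a fixed term, 5 with it as a random term and 6 with the block and the filter together. Of these, NF-kB list genes made up 3, 0, 4 and 5. Leaving out single arrays gave 0 to 2 genes, the 2 without hepcidin array 2, and leaving out both arrays of a number with the block gave 0 or 1. The median change of the members stayed between 0.06 and 0.23 on the log2 scale. Of 216 member values under the alternatives, 206 kept their sign and 10 changed it, in Gadd45a, Ier5 and Phlda1. Gadd45a was at -0.27 without hepcidin array 1, at -0.0045, -0.13 and -0.016 without PBS arrays 2, 3 and 4, at -0.036 without both arrays numbered 1 (the same with the block), at -0.014 with the block and without both arrays numbered 4, and at most at 0.26, without PBS array 1. Ier5 was at -0.035 without PBS array 1 and at 0.20 without PBS array 4, and Phlda1 at -0.0063 without hepcidin array 4 and at -0.016 without PBS array 2. Each fit without a single array leaves another without its same-numbered partner. When single arrays were left out, Ier3 ran from 0.45 to 0.75, Gadd45g from -0.31 to -0.01, Btg2 from 0.22 to 0.51 and Gadd45b from 0.28 to 0.40. The difference in change of Btg2 over Btg1 was -0.0015 without hepcidin array 3 and ran to 0.27, and that of Gadd45a over Gadd45g was -0.0028 without PBS array 4 and ran to 0.33. The causes were not tested. The median residual SD over genes was 0.154 without and 0.119 with the block. The PBS means of Csrnp1, Phlda1, Ier2 and Btg2 lie between the median and the 90th percentile of the background markers, so their ratios may be understated. Those of Ier3, Ier5 and Gadd45g lie above that percentile and below the PBS mean of the highest background marker, Kdr.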
